A study of Mus musculus with 12 samples.

Results

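48 mouse genes of DNA repair and of the DNA damage checkpoint were followed in mouse embryonic fibroblasts (MEFs) that were driven toward a heart muscle programme. For each gene the array probe set (a group of short probes against the same transcript) with the highest mean log2 signal over 12 arrays was used, among probe sets that the platform annotation gives to 1 symbol. In this way 45 of the 48 genes were measured, out of 12393 genes on the array, and no probe set was annotated to Xrcc2, Lig4 or Fancd2. The cells were C57BL/6 MEFs that had all received M2rtTA by lentivirus, and this transactivator drives the delivered genes while doxycycline is present. TF group 1 also received GATA4, TBX5 and MEF2C (3 factors), TF group 2 had Mesp1 and SMARCD3 in addition (5 factors), and TF group 3 had MYOCD and SRF as well (7 factors). The negative control had M2rtTA and no other delivered gene. Each group had 3 arrays, RNA was taken after 7 days with doxycycline, and the medium of all groups also held valproic acid, an inhibitor of histone deacetylases, and extra serum. The delivered sequences were human except for Mesp1, which was from mouse. RNA came from whole cultures, transduced and untransduced cells together, so that fewer cells that express a gene and less RNA per cell cannot be told apart. The MEFs were divided into the groups after the M2rtTA virus, and no source says that the replicates came from separate embryos or separate cultures. The p-values below therefore measure the spread between these replicate arrays.

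Cells mend DNA by several routes. Homologous recombination copies the sister chromatid and is used mainly after DNA has been replicated, whereas end joining seals broken ends at any stage of the cell cycle. Mismatch, base excision and nucleotide excision repair each cut out a different kind of faulty base, the Fanconi anaemia proteins unhook crosslinked strands, and the kinases ATM and ATR with their targets CHK2 and CHK1 hold the cell cycle while damage is present. Many genes of recombination and of the ATR branch are known to be transcribed most strongly in dividing cells as they enter S phase, and adult heart muscle cells rarely divide.

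The log2 signals of replicate arrays correlated with r of 0.960 to 0.966 over probe sets, and the limma standard deviation between replicates had a median of 0.15 on the log2 scale for the members, against 0.17 for all genes. The poly-A spikes, foreign control RNAs that are added to a sample before labelling, averaged 8.16 on the log2 scale over the 9 TF arrays, against 7.35 over the 3 of the negative control (a difference of 0.81, exact permutation test over 220 splits, two-sided p = 0.00455, the smallest possible). The 3 probe sets for 18S ribosomal RNA averaged 12.3 on the TF arrays, against 11.1 on those of the negative control (a difference of 1.19, the same exact p), and the part of either control in the results was not tested. The spike means of single arrays ranged from 8.03 to 8.28 in the TF groups and from 6.99 to 7.79 in the negative control. Scaling to the spikes carries this spread into the control values of every gene. Scaling the arrays to these spikes shifted the median of all genes to -0.83, -0.68 and -0.74 in TF groups 1, 2 and 3. On the deposited scale the medians were 0.07, 0.06 and 0.05. Changes below are therefore given on the deposited scale and relative to that shift where the scale matters. Tnnt2, the cardiac troponin T gene and the check of the programme, had signals of 1642 to 1794, 2014 to 2045 and 5483 to 5523 in TF groups 1, 2 and 3, against 90.6 to 98.5 in the negative control. The 8 fibroblast markers summed to a signal of 67787 to 73781, 55961 to 57892 and 58462 to 60359 in TF groups 1, 2 and 3, against 58906 to 61973 in the negative control. None of the 8 was called lower in TF group 1, and Pdgfra and Pdgfrb were lower in TF groups 2 (-0.89 and -0.67) and 3 (-1.29 and -0.59). The 4 endothelial markers summed to at most 143 on any array and the 6 macrophage markers to at most 545. The 4 epithelial markers summed to 688 to 703, 721 to 779 and 486 to 498 in TF groups 1, 2 and 3, against 217 to 249 in the negative control. Most of the sum in the TF groups was Krt18, with 539 to 562, 610 to 646 and 359 to 382, against 107 to 135. Cdh1, Epcam and Krt8 reached at most 76.4 on any array. The part of these markers in the results was not tested.

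Many of the measured members fell in each TF group. A gene was called when its limma p-value, with Benjamini-Hochberg adjustment across the 12393 genes, was under 0.05 and its fold change was over 1.5. In TF group 1, 20 members were lower and 1 was higher than in the negative control, where 9.01% of all genes were lower and 15.2% higher. In TF group 2, 17 members were lower and 2 higher, against 10.2% and 15.5% of all genes. In TF group 3, 18 members were lower and 2 higher, against 9.92% and 14.9% of all genes. The median log2 change of the 45 members was -0.40, -0.38 and -0.50 in TF groups 1, 2 and 3, and that of all genes was close to 0. The same 16 members fell in all 3 TF groups (35.6% of the members and 6.21% of all genes), namely Brca1, Brca2, Rad54l, Mre11a, Nbn, Blm, Pms2, Exo1, Parp2, Ung, Ercc1, Fanca, Fancl, Atr, Chek1 and H2afx. Rad9a and Hus1 fell in 2 groups, and Parp1, Apex1 and Rad1 in 1. Ercc5 rose in all 3 groups, Ercc3 in TF group 3 and Xpa in TF group 2, and the remaining 21 members were called in none. The 3 comparisons share the negative control arrays.

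**Figure D1:**
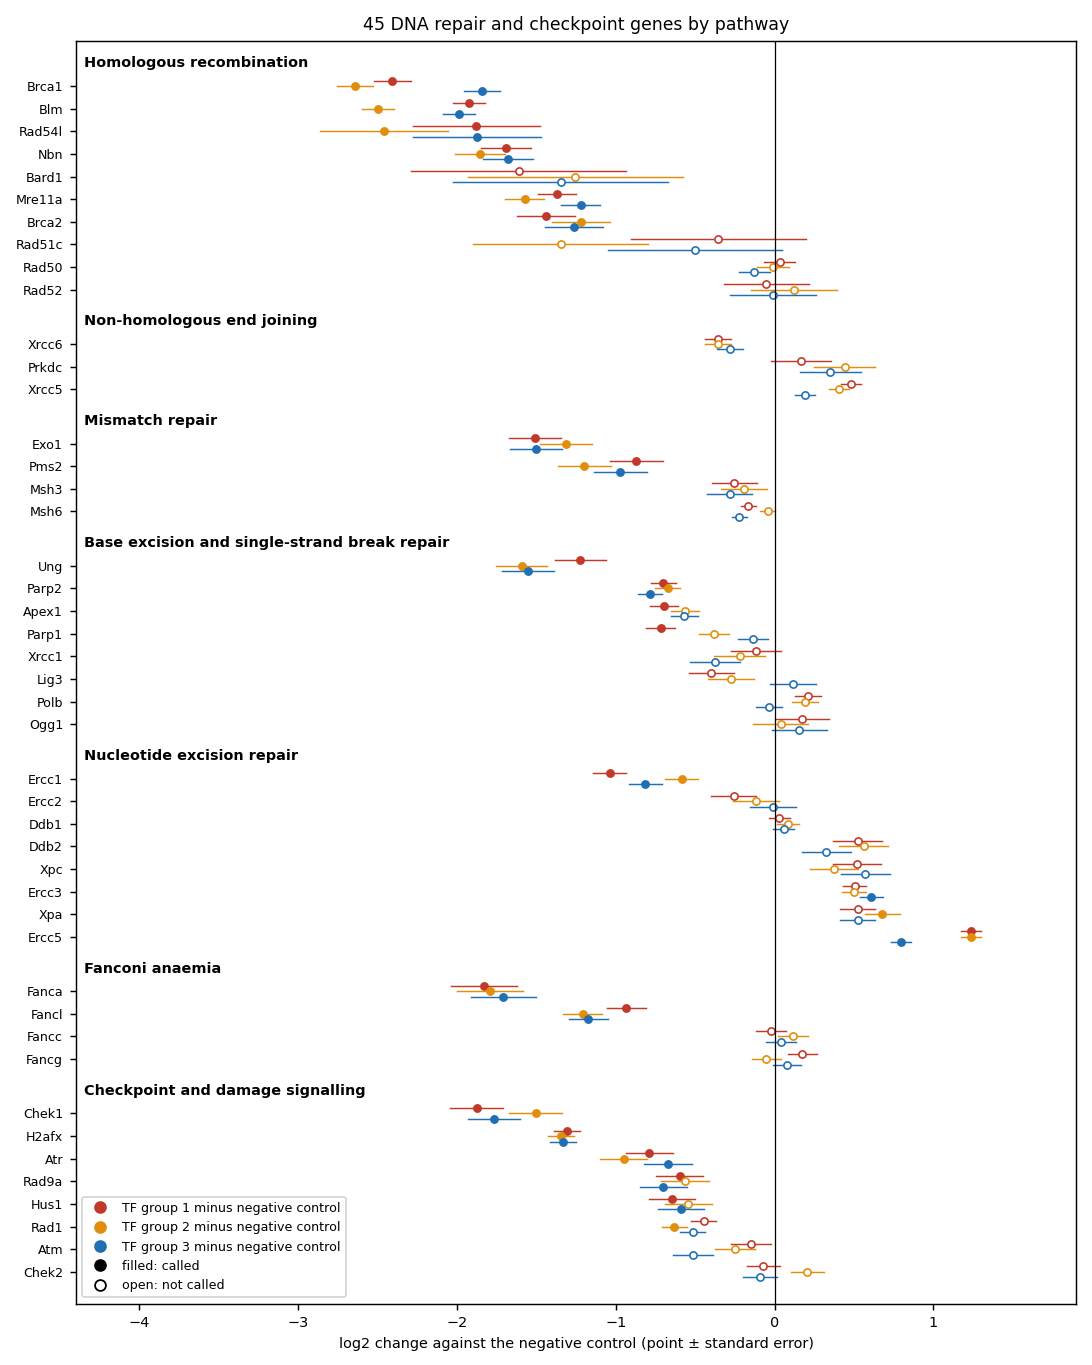
Log2 change of each of the 45 measured members in TF group 1 (red), TF group 2 (orange) and TF group 3 (blue) against the negative control, by repair pathway; points are limma estimates, bars are 1 standard error, and filled points were called. Recombination holds the largest fall in each TF group (Brca1 at -2.41 and -2.64 in TF groups 1 and 2, Blm at -1.99 in TF group 3). Large falls also occur in other pathways. Ercc5 lies at 1.23, 1.23 and 0.80, and after scaling to the poly-A spikes it was called in no group.

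The counts differed by pathway on the deposited scale. Of 10 recombination genes, 6 were lower in every TF group, with a median log2 change of -1.52, -1.46 and -1.31. None of the 3 end joining genes was called in either direction, and their medians were 0.17, 0.41 and 0.19. Among the 8 checkpoint genes 5, 4 and 5 were lower, among 8 base excision and single-strand break repair genes 4, 2 and 2, and 2 of 4 were lower in each TF group for both mismatch repair and the Fanconi anaemia genes. In nucleotide excision repair 1 of 8 genes was lower in each TF group and 1, 2 and 2 were higher on the deposited scale, shares near those of all genes (9.01%, 10.2% and 9.92% lower, 15.2%, 15.5% and 14.9% higher), with medians of 0.51, 0.44 and 0.42, which turned to -0.39, -0.30 and -0.37 after scaling to the spikes. On that scale recombination still had the lowest medians (-2.42, -2.20 and -2.10) and nucleotide excision repair lay above the medians of all genes (-0.83, -0.68 and -0.74). The differences between pathways were not tested, since their genes are few and are not replicates.

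**Figure D2:**
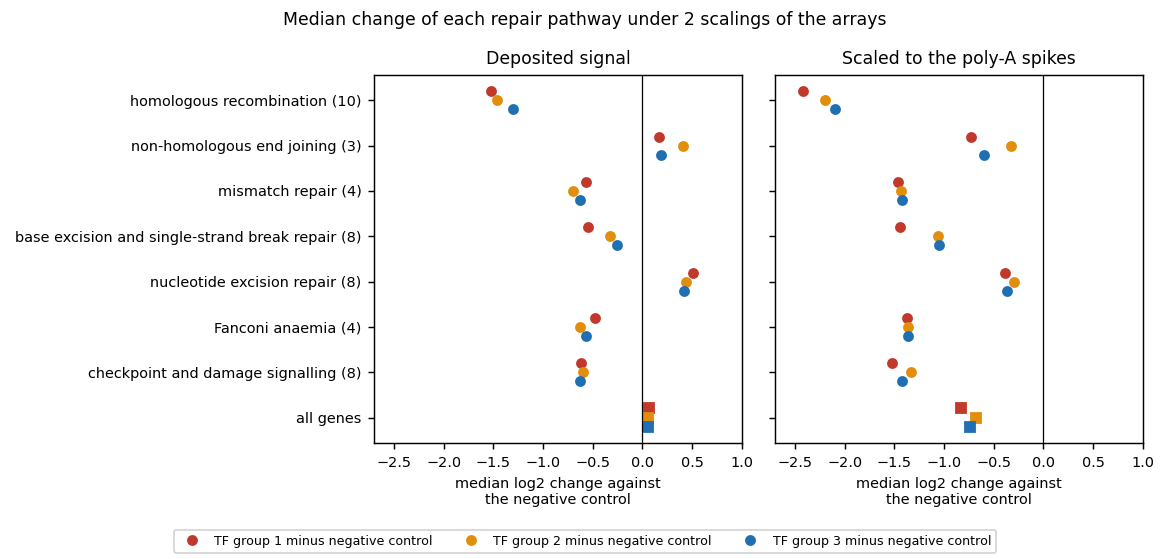
Median log2 change of the members of each pathway (number of genes in brackets) in TF group 1 (red), TF group 2 (orange) and TF group 3 (blue) against the negative control, on the deposited scale (left) and after scaling each array to the poly-A spikes (right); squares are all 12393 genes. Recombination (-1.52, -1.46 and -1.31 on the left) has the lowest and nucleotide excision repair (0.51, 0.44 and 0.42) the highest medians in both panels, and on the right every median is below 0.

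Brca1 encodes the scaffold that commits a broken end to recombination. Its signal was 58.7, 65.6 and 63.4 in TF group 1, 59.5, 53.3 and 47.2 in TF group 2, then 78.3, 99.3 and 101 in TF group 3, against 346, 331 and 318 in the negative control. All 9 TF arrays lay far below the controls, with log2 changes of -2.41, -2.64 and -1.84 (standard error 0.12, limma adjusted p of 1.23e-06 or less). This was the largest fall of any member in TF groups 1 and 2. Brca1 had 3 other, dimmer probe sets, none of which was called, and the brightest of these had changes of 0.21, 0.08 and 0.28.

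Brca2, a central gene of recombination, had signals of 83.2, 89.8 and 73.6 in TF group 1, 116, 75.8 and 98.0 in TF group 2, then 107, 72.3 and 102 in TF group 3, against 229.7, 205 and 232 in the negative control. No TF array reached a control array, and the changes were -1.44, -1.22 and -1.27 (standard error 0.18, limma adjusted p of 3.84e-04 or less). Rad54l, a motor protein that acts during strand invasion, had 69.2, 60.1 and 57.6 in TF group 1, 55.4, 19.2 and 67.0 in TF group 2, then 46.8, 73.2 and 70.5 in TF group 3, against 246, 213 and 227 in the negative control. The groups were again apart, and the array of TF group 2 at 19.2 was the lowest of all. The log2 changes of Rad54l were -1.88, -2.46 and -1.87 (standard error 0.40, limma adjusted p of 0.00372 or less), and -1.90 in TF group 2 without that array.

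Blm, the Bloom helicase that dissolves joined recombination intermediates, had 88.0, 88.9 and 92.4 in TF group 1, 60.2, 53.3 and 68.8 in TF group 2, then 93.2, 76.9 and 89.0 in TF group 3, against 355, 328 and 341 in the negative control. Its TF arrays were all below the controls, and those of TF group 2 were below both other TF groups. The changes were -1.93, -2.50 and -1.99 (standard error 0.10, limma adjusted p of 4.79e-07 or less).

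The Mre11-Rad50-Nbn complex, which senses broken ends and starts to resect them, was split. Mre11a, its nuclease, had 143, 178 and 132 in TF group 1, 144, 119.5 and 128 in TF group 2, then 159.6, 187 and 154 in TF group 3, against 388, 387 and 387 in the negative control. Nbn, the subunit that recruits ATM, had 134, 155 and 140.3 in TF group 1, 167, 101 and 123 in TF group 2, then 132, 154 and 147 in TF group 3, against 446, 464 and 472 in the negative control. Both fell on every TF array, by changes of -1.37, -1.57 and -1.22 for Mre11a (standard error 0.12) and -1.69, -1.86 and -1.68 for Nbn (standard error 0.16, limma adjusted p of 2.72e-05 or less for both genes). Rad50, the ATPase of the complex, had 382, 364 and 379 in TF group 1, 403, 333 and 360.1 in TF group 2, then 355, 323 and 329.9 in TF group 3, against 357, 329.9 and 419.7 in the negative control. Its groups overlapped, with changes of 0.03, -0.01 and -0.13 (standard error 0.10, limma adjusted p of 0.339 or more). On the spike scale Rad50 was called lower in every TF group (-0.87, -0.75 and -0.92), where the medians of all genes were -0.83, -0.68 and -0.74.

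The other recombination members were called in none of the comparisons by their brightest probe sets on the deposited scale. Rad52, an annealing protein, had overlapping groups and changes of -0.05, 0.12 and -0.01. Rad51c, also a recombination gene, had changes of -0.36, -1.35 and -0.50 with a standard error of 0.55, and its arrays in TF group 2 ranged from 17.2 to 113. Leaving out the array of TF group 2 at 113 gave -1.92 (limma adjusted p = 0.0114), and leaving out that at 17.2 gave -0.56 (adjusted p = 0.0755). Its dimmer probe set was lower in all 3 TF groups. Bard1, the partner of BRCA1, had a signal below 32 on every array, so its changes of -1.61, -1.25 and -1.35 (standard error 0.67) were not measured with useful precision.

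**Figure D3:**
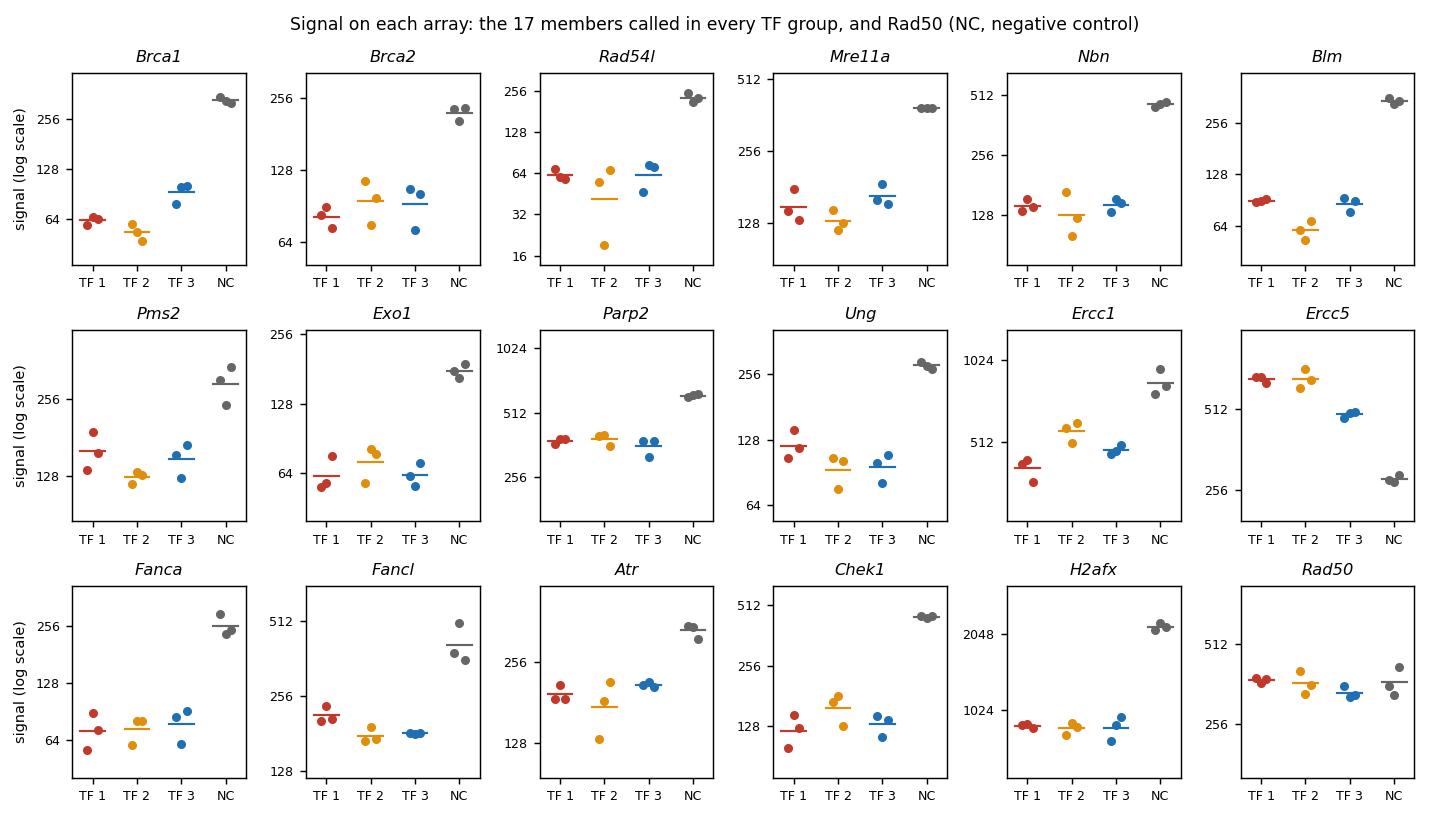
Signal on each array (log axis) for the 17 members called in every TF group and for Rad50, in TF groups 1, 2 and 3 and in the negative control (NC, right); points are arrays and lines are group means of log2 signal. In 16 panels every TF array lies below the negative control arrays, and in the Rad50 panel the groups overlap. In the Ercc5 panel every TF array lies above the negative control arrays on the deposited scale. Ercc5 was called in no group after scaling to the poly-A spikes. These panels were chosen by their calls, which favours such separation, and Rad50 is the only member shown without a call.

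End joining was measured by 3 genes, and all stayed within 1.5-fold on the deposited scale. Xrcc5, which encodes the Ku80 subunit of the end-binding ring, had 244, 228 and 236 in TF group 1, 224, 226 and 222 in TF group 2, then 190.1, 187 and 202 in TF group 3, against 164, 183 and 161 in the negative control. Xrcc6, which encodes its partner Ku70, had 265, 265 and 293 in TF group 1, 280.1, 265 and 278 in TF group 2, then 279, 272 and 319.6 in TF group 3, against 382, 341 and 333 in the negative control. The partners moved in opposite directions on the deposited scale without overlap of the groups, by 0.48, 0.41 and 0.19 for Xrcc5 (standard error 0.06, limma adjusted p of 0.0282 or less) and -0.36, -0.36 and -0.28 for Xrcc6 (standard error 0.08, adjusted p of 0.0188 or less), below the fold threshold in each case. Prkdc, the DNA-dependent protein kinase, had overlapping groups and changes of 0.17, 0.44 and 0.35. On the spike scale Xrcc6 was called lower in every TF group (-1.26, -1.09 and -1.07), Xrcc5 in TF group 3 (-0.60) and Prkdc in TF group 1 (-0.73).

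In mismatch repair, Exo1 and Pms2 fell while Msh3 and Msh6 were not called. Exo1, the exonuclease that removes the faulty strand and also resects broken ends, had 55.6, 57.9 and 76.3 in TF group 1, 58.1, 81.4 and 77.9 in TF group 2, then 62.5, 56.2 and 71.0 in TF group 3, against 178, 166 and 191 in the negative control. Pms2, which nicks the strand to be removed, had 135, 191 and 158 in TF group 1, 119, 133 and 129 in TF group 2, then 155, 126 and 169 in TF group 3, against 302, 241 and 340.4 in the negative control. Neither gene had a TF array above a control array, with changes of -1.51, -1.31 and -1.50 for Exo1 (standard error 0.16) and -0.87, -1.20 and -0.97 for Pms2 (standard error 0.17, limma adjusted p of 0.00193 or less for both genes). The second probe set of Exo1 fell further, by changes of -2.60, -3.03 and -2.95. Msh3 and Msh6, which take part in recognising the mismatch, had changes between -0.28 and -0.04.

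Base excision repair begins with a glycosylase, and its 2 measured glycosylases differed. Ung, which removes uracil, had 105, 141 and 118 in TF group 1, 105, 75.6 and 102 in TF group 2, then 100.4, 80.8 and 109 in TF group 3, against 294, 281 and 271 in the negative control. It was lower on all TF arrays, by changes of -1.22, -1.59 and -1.55 (standard error 0.16, limma adjusted p of 1.78e-04 or less). Ogg1, which removes oxidised guanine, had overlapping groups and changes of 0.17, 0.04 and 0.15.

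Parp2 and Parp1 encode the enzymes that mark strand breaks with poly(ADP-ribose). Parp2 had 364, 385 and 387 in TF group 1, 399.6, 402 and 357 in TF group 2, then 378, 319.7 and 378 in TF group 3, against 604, 618 and 622 in the negative control. Parp1 had 431, 455 and 515 in TF group 1, 597, 582 and 585 in TF group 2, then 659, 708 and 724 in TF group 3, against 766, 857 and 684 in the negative control. Parp2 was lower by a similar amount in each group (-0.70, -0.67 and -0.78, standard error 0.08, limma adjusted p of 6.79e-05 or less), with no overlap. Parp1 passed the threshold in TF group 1 (-0.72, standard error 0.09, adjusted p = 1.56e-04), had a change of -0.38 in TF group 2 with adjusted p = 0.00723 but under 1.5-fold, and overlapped the controls in TF group 3 (-0.14, adjusted p = 0.275). Set directly against TF group 1, TF group 3 was higher in Parp1 on all arrays by 0.58 (adjusted p = 0.00236), just under the fold threshold, and 0.60 with the arrays centred on their medians, which passed it. Its other 2 probe sets were not called in any TF group.

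Apex1, the endonuclease that cuts at the abasic site, had 2084, 1790.1 and 2102 in TF group 1, 2253, 2254 and 2014 in TF group 2, then 2086, 2104 and 2325 in TF group 3, against 3239, 2987 and 3432 in the negative control. Every TF array lay below the controls, and the changes of -0.69, -0.57 and -0.57 (standard error 0.09, limma adjusted p of 5.18e-04 or less) passed the fold threshold in TF group 1, while its 2 other probe sets passed in all groups. Polb, the gap-filling polymerase, and the break-sealing partners Xrcc1 and Lig3 were not called, with changes between -0.40 and 0.21. Of the 2 other probe sets of Polb the brighter was higher in TF group 2 (0.60) and the dim one lower there (-1.64), so this gene is uncertain.

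The 3 members that rose on the deposited scale, Ercc5, Ercc3 and Xpa, belong to nucleotide excision repair, and none of them was called higher on the spike scale. Ercc5 (Xpg), the nuclease that cuts on the 3′ side of a bulky lesion, had 673, 670.0 and 639 in TF group 1, 613, 717 and 656 in TF group 2, then 474, 491 and 496 in TF group 3, against 278, 274 and 289.7 in the negative control. All TF arrays were above the controls and those of TF group 3 lay between the other TF groups and the controls, with changes of 1.23, 1.23 and 0.80 (standard error 0.06, limma adjusted p of 6.19e-06 or less). The change of Ercc5 between TF group 3 and TF group 2 was -0.44 (adjusted p = 0.00218), under 1.5-fold. On the spike scale the changes were 0.34, 0.50 and 0.00, and none was called.

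Ercc3, a helicase of the transcription factor TFIIH that opens the DNA around a lesion, had 447, 477 and 473 in TF group 1, 457, 469.6 and 467 in TF group 2, then 522, 534 and 451 in TF group 3, against 315, 351 and 319.7 in the negative control. Xpa, which positions the repair complex, had 426, 388 and 364 in TF group 1, 395, 504 and 416 in TF group 2, then 369.8, 399 and 406 in TF group 3, against 261, 306 and 254 in the negative control. Neither gene had overlapping groups, and their changes of 0.50, 0.50 and 0.61 (Ercc3, standard error 0.07) and 0.52, 0.68 and 0.52 (Xpa, standard error 0.11) lay near the threshold of 1.5-fold with limma adjusted p of 0.00338 or less, so that Ercc3 passed in TF group 3 and Xpa in TF group 2. These calls depended on single arrays. Ercc3 was 0.58, 0.56 and 0.58 and not called without TF group 3 replicate 1, TF group 3 replicate 2 or negative control replicate 1, Xpa was 0.57 and not called without TF group 2 replicate 2, and neither was called higher on the spike scale. The other, dimmer probe sets of Xpa were not called higher in any TF group.

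Ercc1, which with its partner nuclease cuts on the other side of the lesion and also acts on crosslinks, was the exception. It had 425, 440.1 and 365 in TF group 1, 575, 506 and 599 in TF group 2, then 459.6, 473 and 499 in TF group 3, against 765, 944 and 817 in the negative control. Each TF array lay below the controls, and the changes were -1.04, -0.59 and -0.81 (standard error 0.10, limma adjusted p of 0.00112 or less). In TF group 2 the change was -0.51 without replicate 2 of that group and -0.50 without negative control replicate 2, under the fold threshold. The lesion sensors Xpc and Ddb2 had changes of 0.52, 0.38 and 0.57 and of 0.52, 0.56 and 0.32 without a call, and their partner Ddb1 and the helicase Ercc2 had changes between -0.26 and 0.09.

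Of the Fanconi anaemia genes, which act on crosslinks between the strands, Fanca and Fancl fell and Fancc and Fancg were not called. Fanca, a subunit of the core complex, had 57.1, 88.7 and 72.7 in TF group 1, 60.7, 81.1 and 81.2 in TF group 2, then 84.7, 61.5 and 91.2 in TF group 3, against 293, 232 and 243 in the negative control. Fancl, the ubiquitin ligase of that complex, had 203, 234 and 208 in TF group 1, 169, 193 and 172 in TF group 2, then 183, 180.2 and 183 in TF group 3, against 381, 505 and 358 in the negative control. The TF arrays of both genes were all below the controls, with changes of -1.83, -1.79 and -1.71 for Fanca (standard error 0.21) and -0.93, -1.21 and -1.17 for Fancl (standard error 0.12, limma adjusted p of 1.74e-04 or less for both genes). Fancc and Fancg, subunits of the same complex, had changes between -0.05 and 0.18, and a dimmer probe set of Fancc was lower in TF group 2.

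Among the checkpoint kinases Chek1 and Atr were called lower in every TF group and Atm and Chek2 in none, and the difference between these pairs was not tested. Chek1, which encodes the CHK1 kinase that ATR activates, had 99.6, 145 and 125 in TF group 1, 168, 181 and 129 in TF group 2, then 145, 114 and 138 in TF group 3, against 453, 441 and 449 in the negative control. Atr itself, the kinase that answers to stalled replication, had 185, 210.3 and 187 in TF group 1, 133, 182 and 215 in TF group 2, then 210.4, 215 and 206 in TF group 3, against 349, 344 and 312 in the negative control. Both were below the controls on all TF arrays, with changes of -1.88, -1.50 and -1.77 for Chek1 (standard error 0.16, limma adjusted p of 4.92e-05 or less) and -0.79, -0.95 and -0.67 for Atr (standard error 0.15, adjusted p of 0.00467 or less). Atm, the kinase that answers to broken ends, had 185, 197 and 218 in TF group 1, 174, 222 and 166 in TF group 2, then 154, 162 and 149 in TF group 3, against 249, 222 and 196 in the negative control. It overlapped the controls in TF groups 1 and 2 and had a change of -0.51 in TF group 3 (standard error 0.13, adjusted p = 0.00786), under 1.5-fold. Its target Chek2 had changes of -0.07, 0.21 and -0.09 and was not called.

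Rad1, Rad9a and Hus1 form the clamp that holds ATR activators at damaged DNA. Rad1 had 326, 329.9 and 290.3 in TF group 1, 273, 299 and 259 in TF group 2, then 310.3, 282 and 309 in TF group 3, against 440.4, 442 and 405 in the negative control. Rad9a had 161, 236 and 225 in TF group 1, 249, 193 and 190.3 in TF group 2, then 196, 193 and 182 in TF group 3, against 310.4, 295 and 323 in the negative control. Hus1 had 162, 249 and 203 in TF group 1, 225, 222 and 202 in TF group 2, then 235, 189 and 207 in TF group 3, against 296, 336 and 314 in the negative control. No TF array of any of the 3 reached a control array, and all 9 changes lay between -0.70 and -0.45 with limma adjusted p of 0.0123 or less, so that 5 of them passed 1.5-fold and 4 did not. Of those 5, the Rad9a change in TF group 1 was -0.43 without TF group 1 replicate 1 and -0.57 without negative control replicate 3, that of Hus1 was -0.49 in TF group 1 without replicate 1 and -0.52, -0.58 and -0.54 in TF group 3 without TF group 3 replicate 2, TF group 3 replicate 3 or negative control replicate 2, and that of Rad1 in TF group 2 was -0.58 without replicate 3, none of them called.

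H2afx (now H2ax), the histone variant that is phosphorylated around breaks, had 888, 902 and 864 in TF group 1, 811, 903 and 874 in TF group 2, then 769, 892 and 959 in TF group 3, against 2129.8, 2259.9 and 2177 in the negative control. The TF groups lay together and far below the controls, with changes of -1.31, -1.34 and -1.33 (standard error 0.08, limma adjusted p of 1.37e-06 or less).

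Members known as background to be transcribed with entry into S phase made up part of the falls. Of 12 such genes 11 were measured, and 9 of them were lower in each TF group (Brca1, Brca2, Rad54l, Blm, Exo1, Ung, Fanca, Chek1 and H2afx), with median changes of -1.61, -1.50 and -1.55. Their summed signal was 2015 to 2161 in TF group 1, 2068 to 2109.6 in TF group 2 and 1999 to 2213 in TF group 3, against 5024 to 5122 in the negative control. Of the 34 other members 11, 8 and 9 were lower in TF groups 1, 2 and 3 (32.4%, 23.5% and 26.5%, against 9.01%, 10.2% and 9.92% of all genes). In the same groups 1, 2 and 2 of them were higher (2.94%, 5.88% and 5.88%, against 15.2%, 15.5% and 14.9%). The medians of the 34 were -0.20, -0.21 and -0.13. Mre11a, Nbn, Pms2, Parp2, Ercc1, Fancl and Atr are the 7 members outside that list that fell in every TF group. The exceptions in the list were Bard1, which was too dim, and Msh6, whose changes of -0.16, -0.04 and -0.22 were under 1.5-fold.

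Markers of cell division moved with these genes. Of 19 proliferation markers measured, 18, 17 and 18 were lower in TF groups 1, 2 and 3 and none was higher, with medians of -2.40, -2.87 and -2.65. Their summed signal was 7892 to 8684 in TF group 1, 6873 to 7271 in TF group 2 and 8211 to 9139 in TF group 3, against 39733 to 40096 in the negative control. Mki67, a protein of cycling cells, had signals of 126, 126 and 146 in TF group 1, 124, 97.5 and 82.9 in TF group 2, then 123, 146 and 146 in TF group 3, against 1489, 1447 and 1324 in the negative control. Mcm5, part of the replicative helicase, had changes of -2.93, -3.24 and -3.03 and Pcna, the replication clamp, -1.55, -1.78 and -1.45 (limma adjusted p of 7.22e-07 or less for both genes). The part of cell division in the changes of the repair genes was not tested.

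**Figure D4:**
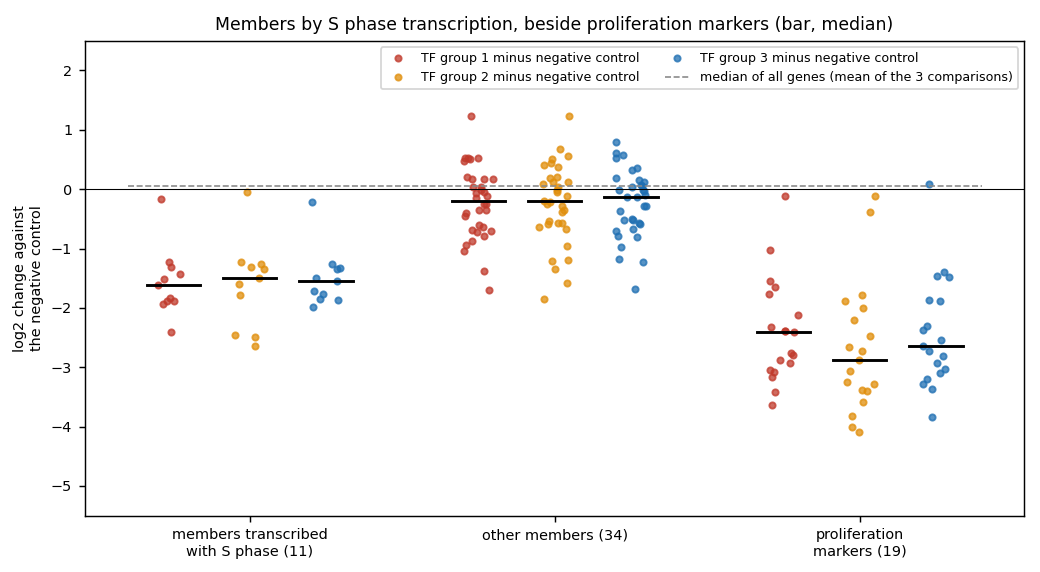
Log2 change against the negative control of the 11 measured members known to be transcribed with S phase, the 34 other members and 19 proliferation markers, in TF group 1 (red), TF group 2 (orange) and TF group 3 (blue); each point is a gene, jittered sideways, bars are medians and the broken line is the median of all genes. The medians are -1.61, -1.50 and -1.55 for the S phase members, -0.20, -0.21 and -0.13 for the others and -2.40, -2.87 and -2.65 for the proliferation markers.

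The promoters of the members were searched for words that are bound in genes of the cell cycle, because many of the members fell together. RefSeq promoters (GRCm38.p6, 250 bases before to 50 after the annotated start) were at hand for 35 of the 45 measured members. The E2F words TTTCCCGC, TTTGGCGC, TTTCGCGC and TTTGCCGC, on either strand, were in the promoters of 8 of the 35 members (22.9%), against 4.07% of 9887 array genes with a promoter and 2.60% of all 27025 genes of the table. They stood in 1 of the 13 members that fell in all TF groups (Brca2) and in 7 of the 18 called lower in none (Bard1, Chek2, Fancg, Msh3, Msh6, Rad51c and Xrcc6). Of these, Bard1 was too dim to judge, and Rad51c had a dimmer probe set that was lower in every TF group. Xrcc6 lay below the controls on all TF arrays, by less than 1.5-fold. Nbn, Exo1 and H2afx, which fell in all TF groups, had no promoter at hand. The difference between these shares was not tested. The CHR words TTTGAA and TTCGAA were in 5 of the 35 members, 14.3% against 17.3% of array genes, and the CCAAT box in 18, 51.4% against 42.3%. Such matches describe the letters of a window and do not show binding. The 250 bases before the start are printed for the recombination genes with 3 of the deepest falls or the E2F word (Brca2, Brca1, Blm), for members with the word and no call (Chek2, Xrcc6, Fancg) and for Ercc5, which rose on the deposited scale, with E2F words and CCAAT boxes in capitals.
Brca2 (chr5:150522371-150522620, plus strand): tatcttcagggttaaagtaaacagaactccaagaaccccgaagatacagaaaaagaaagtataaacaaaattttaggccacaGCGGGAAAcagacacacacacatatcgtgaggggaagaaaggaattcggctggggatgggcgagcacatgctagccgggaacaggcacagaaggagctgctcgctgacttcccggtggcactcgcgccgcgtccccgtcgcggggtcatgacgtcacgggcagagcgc
Brca1 (chr11:101551956-101552205, minus strand): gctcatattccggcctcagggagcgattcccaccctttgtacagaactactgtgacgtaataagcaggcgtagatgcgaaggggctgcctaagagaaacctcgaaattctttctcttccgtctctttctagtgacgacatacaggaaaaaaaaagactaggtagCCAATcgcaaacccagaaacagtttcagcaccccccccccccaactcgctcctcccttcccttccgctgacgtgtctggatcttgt
Blm (chr7:80534999-80535248, minus strand): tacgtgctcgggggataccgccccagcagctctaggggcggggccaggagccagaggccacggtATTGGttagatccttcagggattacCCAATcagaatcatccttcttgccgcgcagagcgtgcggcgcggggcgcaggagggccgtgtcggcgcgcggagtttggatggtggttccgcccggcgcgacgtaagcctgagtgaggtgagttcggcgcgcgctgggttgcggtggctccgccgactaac
Chek2 (chr5:110839733-110839982, plus strand): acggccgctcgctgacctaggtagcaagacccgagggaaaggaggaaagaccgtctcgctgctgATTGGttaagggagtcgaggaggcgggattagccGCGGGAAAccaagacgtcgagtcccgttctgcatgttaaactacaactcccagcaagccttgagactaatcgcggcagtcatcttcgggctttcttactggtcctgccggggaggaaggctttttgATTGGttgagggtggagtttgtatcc
Xrcc6 (chr15:82016119-82016368, plus strand): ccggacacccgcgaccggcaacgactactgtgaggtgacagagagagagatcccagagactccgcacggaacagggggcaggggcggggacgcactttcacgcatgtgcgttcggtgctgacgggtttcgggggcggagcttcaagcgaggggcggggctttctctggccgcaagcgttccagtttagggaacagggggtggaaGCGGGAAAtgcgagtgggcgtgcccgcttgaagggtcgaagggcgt
Fancg (chr4:43010302-43010551, minus strand): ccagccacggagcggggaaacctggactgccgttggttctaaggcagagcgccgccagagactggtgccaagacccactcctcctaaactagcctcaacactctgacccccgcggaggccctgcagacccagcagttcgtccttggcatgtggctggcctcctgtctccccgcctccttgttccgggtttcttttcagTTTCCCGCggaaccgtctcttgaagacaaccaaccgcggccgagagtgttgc
Ercc5 (chr1:44147494-44147743, plus strand): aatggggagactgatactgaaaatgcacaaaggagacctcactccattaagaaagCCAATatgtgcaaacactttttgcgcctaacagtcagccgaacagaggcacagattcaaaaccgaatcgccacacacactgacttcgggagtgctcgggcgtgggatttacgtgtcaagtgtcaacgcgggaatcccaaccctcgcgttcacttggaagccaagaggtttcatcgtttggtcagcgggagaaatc
In Brca2 the E2F word lies on the reverse strand 168 bases before the start, in Chek2 152 and in Xrcc6 46 bases before it, and in Fancg it is on the forward strand 52 bases before. Distances are from the start of the promoter used. The annotated gene begins before the printed window for Brca2, Xrcc6, Fancg and Ercc5, and inside it for Chek2 and Blm. The start used is therefore not the first annotated one for these genes. Brca1 has a CCAAT box 86 bases before its start and no E2F word, and Blm has a pair of CCAAT boxes.

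Few differences between the TF groups were called among the members. TF group 2 against TF group 1 gave no member lower and none higher by limma, where 1.94% of all genes were lower and 2.16% higher, and 8 members had an unadjusted p under 0.05 (17.8%, against 22.4% of all genes). TF group 3 against TF group 1 also gave 0 and 0, against 3.17% and 3.38% of all genes, with 7 members under the unadjusted threshold (15.6%, against 29.95% of all genes). TF group 3 against TF group 2 gave 0 lower and 1 higher, against 1.84% and 2.49%, with 10 members under the unadjusted threshold (22.2%, against 24.6% of all genes). An unmoderated linear model called the same numbers (0, 0 and 1). The member was Brca1, at 78.3, 99.3 and 101 in TF group 3, against 59.5, 53.3 and 47.2 in TF group 2. The arrays did not overlap and the change was 0.80 (standard error 0.12, adjusted p = 0.00217). It was 0.74 with adjusted p = 0.154 on the spike scale and 0.16 with adjusted p = 0.878 when the 4 probe sets of the gene were averaged, so the difference rests on the brightest probe set. For Blm the change of TF group 2 against TF group 1 was -0.57 (adjusted p = 0.0071) without overlap, and this was under 1.5-fold.

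The other probe sets of the members also gave more lower than higher calls, but were called lower less often than the brightest ones. The 45 members had 77 probe sets, of which 29, 26 and 26 were lower in TF groups 1, 2 and 3, against 9.06%, 9.98% and 9.36% of all 22626 probe sets. Of the 32 that were not the brightest for their gene, 9, 9 and 8 were lower and 1, 2 and 0 higher. Of the 45 brightest ones 20, 17 and 18 were lower. None of the other probe sets of Brca1 or Parp1 was called. All 3 probe sets of Rad54l were lower in every TF group, and the second brightest of 4 for Chek1 had changes of -1.81, -1.62 and -2.03. For Ddb2 a second probe set of nearly the same brightness was higher in TF groups 1 and 2 (0.72 and 0.59) where the first was not called.

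Other genes of these pathways were also counted. Of 88 such genes 60 were measured, and 19, 19 and 18 were lower and 8, 8 and 6 higher in TF groups 1, 2 and 3, with medians of -0.17, -0.25 and -0.31, where 9.01%, 10.2% and 9.92% of all genes were lower and 15.2%, 15.5% and 14.9% higher. In recombination 4 of 8 were lower in each TF group and in the Fanconi anaemia route 4 of 7, while 0 of 4 in end joining, 0 of 9 in nucleotide excision repair and 0 of 1 in mismatch repair were. Lists this short cannot set 0 apart from the share of all genes. In base excision and single-strand break repair 3, 3 and 2 of 10 were lower and 1 higher in each. Of 8 genes of translesion synthesis and direct reversal 2 were lower in each TF group and 3, 2 and 2 higher. Of 13 checkpoint genes 6 were lower in each TF group and 3, 4 and 3 higher, and of 9 nucleotide excision repair genes 1, 0 and 0 were higher. Rad51ap1, a recombination accessory gene, had 58.7 to 90.9 in TF group 1, 48.7 to 51.5 in TF group 2 and 34.9 to 78.4 in TF group 3, against 536 to 602 in the negative control, the largest fall in every TF group (8.04-fold, 11.3-fold and 10.0-fold). Timeless, which protects the replication fork, was also among the 3 largest falls in every TF group (-1.74, -2.72 and -2.18), with Ube2t, the ubiquitin-conjugating enzyme of the Fanconi route, in TF group 1 (-1.86), Eme1, a nuclease subunit, in TF group 2 (-2.07) and Rpa2, a single-strand binding protein, in TF group 3 (-1.95). The limma adjusted p was 1.97e-04 or less for each of these.

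The higher calls among these genes (8, 8 and 6 of 60) were no more frequent than among all genes. Gadd45a, a stress-induced growth arrest gene, had signals of 514 to 538 in TF group 1, 513 to 551 in TF group 2 and 575 to 585 in TF group 3, against 244 to 272 in the negative control (changes of 1.03, 1.03 and 1.17). Cdkn1a, the inhibitor of cyclin-dependent kinases p21, was among the 3 largest rises in TF groups 1 and 3 (1.19 and 0.96) and Mdm2, the ubiquitin ligase of p53, in TF group 2 (1.16). Mgmt, which removes alkyl groups from guanine, was among them in all TF groups (0.99, 1.31 and 0.99). Genes were named only if they were called and no TF array overlapped the controls, so both hold by choice. The limma adjusted p was 1.84e-04 or less. On the spike scale their changes lay between 0.06 and 0.57, under 1.5-fold.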

How the data were processed

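RNA was measured on 12 Affymetrix Mouse Genome 430A 2.0 arrays, 3 per group. The submitters' processing notes name RMA and Partek, without versions, but the values deposited by the authors were linear signal intensity with a 2% trimmed mean of 500 on every array, and log2 values had been assumed when the tests were planned. The intensity was therefore taken to log2 without an offset and not normalized again. 64 control probe sets were left out and 22626 were tested. The platform annotation gave 20380 of these 1 symbol, 691 several and 1555 none, and the brightest probe set per symbol gave 12393 genes. Each gene was fitted with limma 3.58.1 in R 4.3.3 with a mean per group over all 12 arrays without covariates, with Benjamini-Hochberg adjustment across the genes. A call needed adjusted p under 0.05 and a fold over 1.5. The fit was tested on simulated data. The number of arrays limits the precision, and signals under 32 were treated as dim. Every member was accounted for. Of the other repair genes, those with the 3 largest called changes in each direction and TF group were named. Only genes whose TF arrays did not overlap the controls were eligible. The members and lists were chosen with earlier results of these data known. Alternatives were other scalings (array medians, quantile normalization, poly-A spikes), offsets, probe set rules, fold minimums, a replicate block and leaving out each array. Promoters came from RefSeq (GRCm38.p6).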

Additional observations from a re-analysis of the deposited data

Results flagged for a closer look

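Brca1 was the only member that passed both the adjusted p and the 1.5-fold threshold in a direct test between TF groups, where TF group 3 exceeded TF group 2 by 0.80 on the log2 scale (limma adjusted p = 0.00217). Its signal was higher on all 3 arrays of TF group 3 than on those of TF group 2. The value ranged from 0.71 to 0.92 when single arrays were left out, and was 0.16 and not called when the gene's probe sets were averaged. Groups of 3 arrays are too small for a check of single outlying arrays.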

How the results depend on the processing

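Most calls of members kept their direction. Arrays centred on their medians gave member medians of -0.53, -0.48 and -0.61 in TF groups 1, 2 and 3, with 1 member higher in TF group 2, 1 in TF group 3 and 1 in TF group 3 against TF group 1. Quantile normalization gave a median of -0.50 in TF group 1, 1 higher in TF group 3 and 1 in TF group 3 against TF group 1. Of all 12393 genes, 1588 and 1475 were higher in TF groups 2 and 3 with array medians. With quantile normalization 1595 were higher in TF group 3. For comparisons between TF groups under these scalings all genes were not counted. Scaling to the poly-A spikes had the largest effect, with 38, 35 and 38 members lower (55.6%, 45% and 48.9% of all genes), 0 higher in each, medians of -1.30, -1.12 and -1.29, and 0 higher in TF group 3 against TF group 2. Among members called on either scale, it turned the sign of Rad50 (-0.87), Prkdc (-0.73), Ogg1 (-0.73), Polb (-0.69), Ddb1 (-0.87) and Fancg (-0.72) in TF group 1. In TF group 2 these were Ogg1 (-0.70), Xpa (-0.060), Ddb1 (-0.65) and Fancc (-0.62). In TF group 3 they were Xrcc5 (-0.60), Lig3 (-0.68), Ogg1 (-0.64), Ercc3 (-0.18), Ddb1 (-0.74), Fancc (-0.75) and Fancg (-0.71). Some members called on neither scale also changed sign, such as Xrcc5 in TF groups 1 and 2 (-0.42 and -0.33). The share of higher calls among all genes called was 62.8%, 60.4% and 60.0% as deposited, 48.3%, 49.8% and 47.9% with array medians and 4.75%, 8.49% and 6.80% with the spikes. The cause of the spike difference was not tested. An offset of 16 gave a median of -0.36 in TF group 3, and an offset of 50 gave -0.31 in TF group 1, -0.32 and 1 higher in TF group 3, and 0 higher in TF group 3 against TF group 2. With the offset of 50, 1359 of all 12393 genes were higher in TF group 3. Averaging probe sets gave 2 higher and a median of -0.50 in TF group 1, 1 higher in TF group 2, a median of -0.40 in TF group 3, 0 higher in TF group 3 against TF group 2 and 1 against TF group 1. Probe sets specific to 1 transcript covered 39 members, with a median of -0.28 in TF group 3. Without a fold minimum 6, 5 and 5 members were higher, and 1 lower and 1 higher, 2 and 2, and 2 and 3 in TF group 2 against 1, 3 against 2 and 3 against 1. Shares of all genes were not counted for other fold minimums, probe set rules or left-out arrays. Those member counts are therefore not set against a background. A fold of 2 left 12 lower in TF group 1, 1 higher in TF group 2, 0 in TF group 3 and 0 in TF group 3 against TF group 2. Lower calls also became fewer in TF groups 2 and 3, where Parp2, Ercc1 and Atr had fallen by less than 2-fold. Leaving out single arrays gave 18 to 21, 17 to 19 and 17 to 19 lower, 1 to 2, 1 to 3 and 1 to 3 higher, medians of -0.42 to -0.30, -0.46 to -0.38 and -0.52 to -0.42, 0 to 1 lower and 0 to 0 higher in TF group 2 against 1, 1 to 2 higher in 3 against 2 and 0 to 2 in 3 against 1. Of the 16 members lower in all TF groups 15 kept that without any array, Ercc1 being the exception. Replicate numbers did not pair the arrays (r of -0.07 to 0.11 between same-numbered arrays, 1 of 18 over 0.1), and a replicate block gave 20, 17 and 18 members lower and 1, 2 and 2 higher. With that block 1107, 1253 and 1218 of all 12393 genes were lower and 1861, 1907 and 1830 higher.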
